A study of Homo sapiens with 3 samples.

Results

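The genes described here are 34 genes of the tight junction and of apical-basal polarity, out of 19974 protein-coding genes on chromosomes 1 to 22 and X. They were taken by name: 21 claudins, 3 other junctional membrane proteins (OCLN, MARVELD2 and F11R), 4 scaffolds of the junctional plaque (TJP1, TJP3, CGN and CGNL1) and 6 polarity proteins (PATJ, CRB3, PARD3, PARD6B, PRKCI and DLG1). BRG1, the ATPase that SMARCA4 encodes in SWI/SNF chromatin remodelling complexes, was mapped by chromatin immunoprecipitation and sequencing in wild-type 12Z cells, an established human endometriotic epithelial line. There were 2 BRG1 libraries, called replicates 1 and 2, and 1 input library, all from the same untreated wild-type line, so no condition is compared. The labels do not say whether the replicates were separate cultures, so their agreement may be technical. Peaks report binding and not transcription, and the lists cannot show whether the cells express epithelial markers.

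Tight junctions seal the space between neighbouring epithelial cells near their apical side. Claudins and occludin-like proteins form the strands in the membrane, and the zonula occludens proteins and cingulins of the plaque tie them to actin. The Crumbs complex (CRB3, PATJ), the Par complex (PARD3, PARD6B, and the atypical protein kinase C encoded by PRKCI) and the basolateral Scribble module with DLG1 set where that belt forms. Endometrial glands and their ectopic counterparts are lined by epithelium with such junctions.

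A peak was given to a gene when its midpoint lay in the gene body, or within 100 kb of it with no other protein-coding gene nearer. This stretch is called the gene's domain. The authors deposited 1 peak list per replicate, with 17399 and 10157 peaks, and an overlap list of 6343 peaks, here called shared peaks. Each peak carries the authors' fold over background and the −log10 of its q-value. Peaks in these lists are weak: medians of the fold were 3.53 (replicate 1), 3.71 (replicate 2) and 3.33 (overlap list). The read depth is not in the lists and is unknown.

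Shared BRG1 peaks were found at 4 of the 6 polarity genes named here, at 1 cingulin gene and at 1 of 21 claudins. Of the 34 genes, 6 had a shared peak: PATJ, DLG1, PARD6B, PRKCI, CGNL1 and CLDN4. That is 17.6%, where 9.67% of all protein-coding genes had one. The share was 4 of 6 for polarity genes, 1 of 4 for plaque scaffolds, 1 of 21 for claudins and 0 of 3 for the other membrane proteins. The 6 genes held 12 shared peaks, of which DLG1 had 4, PARD6B, PRKCI and CGNL1 had 2 each, and PATJ and CLDN4 had 1 each. With a −log10 q of at least 5 required of each replicate, CGNL1 alone remained, and 0.125% of all genes had such a peak. No test was made of these counts, because the genes were chosen with earlier results of these data known.

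**Figure D1:**
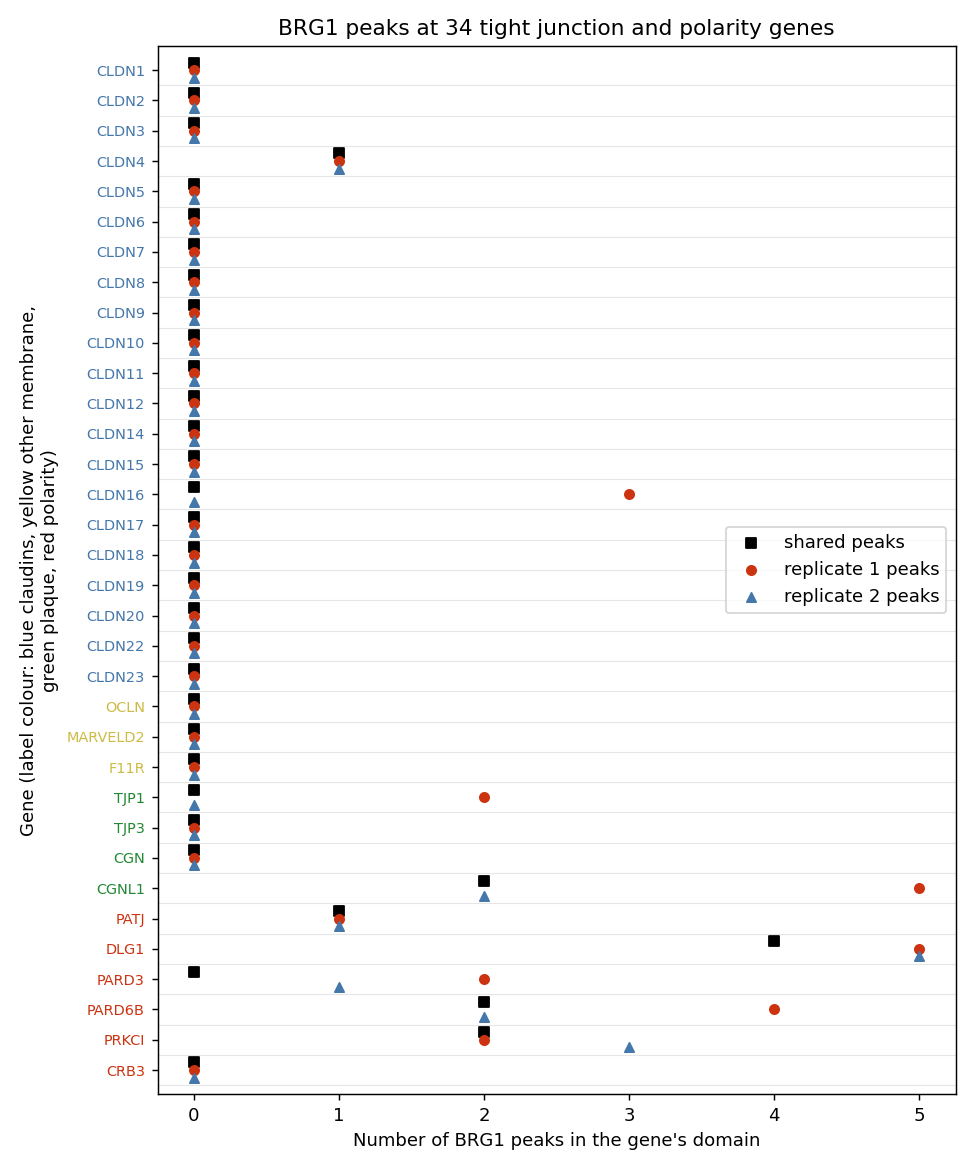
Number of BRG1 peaks (horizontal axis) in the domain of each of the 34 genes (vertical axis), with squares for shared peaks, circles for replicate 1 and triangles for replicate 2. Points leave 0 for 9 genes, and DLG1 is highest among shared peaks with 4.

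The gene classes differ in length, and longer domains hold more peaks. The median domain was 39.3 kb for claudins and 246 kb for polarity genes, against 56.5 kb over all genes. Across all genes, a shared peak was found in 1.33% of domains under 25 kb and in 27.3% of those over 200 kb. When each gene is given the share of its length class, those shares add up to 1.62 genes for the claudins, where 1 had a peak, and to 1.07 for the polarity genes, where 4 had one. For all 34 genes they add up to 3.63, where 6 had a peak. The longest class is open above 200 kb, with a median domain of 287 kb. PATJ, DLG1 and PARD3, with domains of 446, 363 and 902 kb, get the share of that class, which may be too low for them. Per length, polarity domains held 4.71 shared peaks per Mb, plaque domains 2.95, claudin domains 0.672 and all genes 1.55. The claudin value rests on 1 peak and the polarity value on 9, of which DLG1 gave 4. Peaks were also unevenly spread over chromosomes. The share of genes with a shared peak was 6.84% on chromosome 1 (PATJ), 9.47% on chromosome 3 (DLG1, PRKCI), 13.4% on chromosome 20 (PARD6B), 13.6% on chromosome 15 (CGNL1) and 14% on chromosome 7 (CLDN4). On chromosomes where none of the 34 genes had one, it ran from 0.708% on X (CLDN2) to 16.7% on chromosome 5 (OCLN, MARVELD2). It was 1.99% on chromosome 16 (CLDN6, CLDN9), 4.27% on chromosome 19 (TJP3, CRB3) and 15.9% on chromosome 10 (PARD3).

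**Figure D2:**
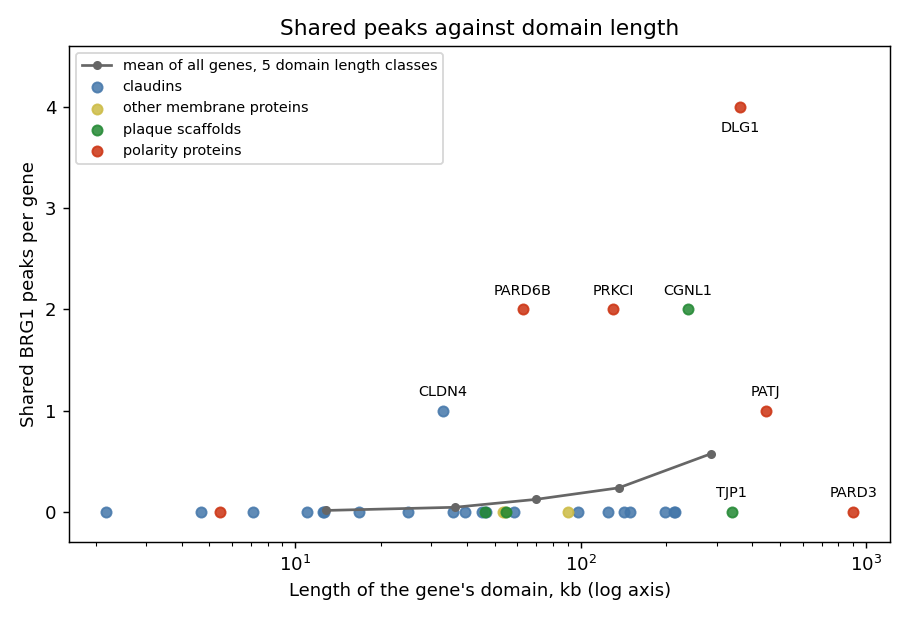
Shared peaks per gene (vertical axis) against the length of its domain in kb (horizontal log axis), with points for the 34 genes by class and the line for the mean of all genes in 5 length classes. DLG1, PARD6B, PRKCI, CGNL1, PATJ and CLDN4 lie above the line or, past its last point, above its highest value, and PARD3 and TJP1 are long genes at 0. The line reaches at most 0.575 peaks per gene, so any gene with a shared peak must lie above it.

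None of the 43 annotated starts of the 26 genes in the promoter table had a shared or replicate peak over its promoter window, where 0.783% of all 35116 starts had a shared one. CLDN5, CLDN8, CLDN9, CLDN19, CLDN23, F11R, PARD3 and PARD6B have no entry. The starts nearest to a shared peak belong to PATJ, CLDN6, PRKCI, DLG1 and CLDN4, all within 10 kb. Their 250 bases before the start follow, from RefSeq (GRCh38.p14), 5′ to 3′. For PATJ and PRKCI the peak lies after the start, so these bases lie on the other side of the start from it. Capitals mark matches, on either strand, to CACCTG (the E-box bound by Snail and ZEB repressors), AACCNGTT (grainyhead-like factors), GGAATG (TEAD) and TGANTCA (AP-1).
PATJ, chr1:61742230-61742479, plus strand, shared peak from 0.815 kb after the start: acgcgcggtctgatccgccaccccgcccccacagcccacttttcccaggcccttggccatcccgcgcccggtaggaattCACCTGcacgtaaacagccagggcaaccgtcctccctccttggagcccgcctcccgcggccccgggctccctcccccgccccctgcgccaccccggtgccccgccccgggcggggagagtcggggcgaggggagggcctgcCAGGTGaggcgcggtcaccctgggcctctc
CLDN6, chr16:3018184-3018433, minus strand, shared peak from 2.61 kb before the start: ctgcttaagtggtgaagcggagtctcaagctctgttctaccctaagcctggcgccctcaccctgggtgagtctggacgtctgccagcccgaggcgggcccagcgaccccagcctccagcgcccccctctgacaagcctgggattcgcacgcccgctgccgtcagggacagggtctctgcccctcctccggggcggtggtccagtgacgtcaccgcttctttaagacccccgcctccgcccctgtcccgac
PRKCI, chr3:170222174-170222423, plus strand, shared peak from 5.56 kb after the start: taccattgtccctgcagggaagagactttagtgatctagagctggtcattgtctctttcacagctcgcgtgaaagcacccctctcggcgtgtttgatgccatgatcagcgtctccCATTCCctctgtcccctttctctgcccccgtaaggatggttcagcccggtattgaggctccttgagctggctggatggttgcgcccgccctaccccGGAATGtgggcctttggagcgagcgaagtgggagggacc
DLG1 (outermost start), chr3:197299322-197299571, minus strand, shared peak from 6.6 kb before the start: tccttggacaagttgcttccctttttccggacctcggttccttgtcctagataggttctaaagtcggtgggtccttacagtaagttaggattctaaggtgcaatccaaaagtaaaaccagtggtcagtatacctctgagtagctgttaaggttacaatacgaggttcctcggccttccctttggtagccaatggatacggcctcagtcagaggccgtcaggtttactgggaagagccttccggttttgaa
CLDN4, chr7:73830746-73830995, plus strand, shared peak up to 7.94 kb before the start: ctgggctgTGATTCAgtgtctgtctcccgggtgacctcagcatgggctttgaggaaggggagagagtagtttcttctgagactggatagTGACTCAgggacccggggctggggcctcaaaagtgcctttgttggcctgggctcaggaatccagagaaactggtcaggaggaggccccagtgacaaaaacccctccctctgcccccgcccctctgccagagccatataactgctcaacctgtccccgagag

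The PATJ window held 2 E-boxes, the PRKCI window 2 TEAD matches and the CLDN4 window 2 AP-1 matches, while the CLDN6 and DLG1 windows shown held none of the 4 motifs. Another DLG1 start, 7.78 kb from the peak, has an E-box in its window (chr3:197298136-197298385). An E-box was in 17.5% of all windows of this length and in 10 of the 43 of these genes, among them OCLN, CLDN7 and CRB3. A TEAD match was in 11.9% of all windows and 3 of the 43, an AP-1 match in 6.57% and 4 of the 43, and a grainyhead-like match in 1.49% and 1 of the 43, that of CGN. These matches describe letters in the windows and say nothing of binding there.

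Among the claudins, BRG1 was found in both replicates at CLDN4, a sealing claudin of many simple epithelia. The shared peak lay at 73822605 to 73823053 on chromosome 7 (GRCh38.p12, the build of all peak positions given here), with its midpoint 8.17 kb upstream of the CLDN4 start and outside any protein-coding gene body. Its fold was 3.47 in replicate 1 and 3.74 in replicate 2, with a −log10 q of 1.72 and 1.89. Both values lie near the middle of their lists, at the 43.1 and 53.9 fold percentile. CLDN3, the neighbouring claudin 60.7 kb away on the other side of that peak, had 0 peaks in all 3 lists, and the peak lay 52.6 kb upstream of its start.

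CLDN16, a claudin of renal magnesium reabsorption, had 3 peaks in replicate 1 and 0 in replicate 2. Their folds were 3.59, 3.61 and 4.32. The first, at 190265906 to 190266109, lay 24.4 kb upstream of the outer start. The strongest, at 190386256 to 190386394 on chromosome 3, lay 1.84 kb upstream of the inner of the 2 annotated CLDN16 starts. The CLDN16 body overlaps CLDN1, a main sealing claudin of epithelia. The peak of fold 3.61, at 190345289 to 190345957, lay 23.2 kb upstream of the CLDN1 start, yet CLDN1 itself had 0 peaks because that position is in the CLDN16 body. These peaks cannot be attributed to one gene or the other from their position.

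The other 18 claudins besides CLDN1, CLDN4 and CLDN16 also had 0 peaks in every list. They were CLDN2, which forms cation pores, CLDN5, the main claudin of endothelium, CLDN10 and CLDN15, which form ion pores, CLDN7, CLDN11 of myelin and Sertoli cells, CLDN14, CLDN18 of stomach and lung, CLDN19, which partners CLDN16 in the kidney, and CLDN3, CLDN6, CLDN8, CLDN9, CLDN12, CLDN17, CLDN20, CLDN22 and CLDN23. Peaks of either replicate were found in the domains of 2 of 21 claudins, where 21.2% of all genes had one. That comparison is not matched for length, and the domains of 8 of the 21 claudins are under 25 kb. From a claudin body to the nearest shared peak of any gene, the distance ran from 2.61 kb to 27673 kb, with a median of 201 kb, against 354 kb over all genes. The closest was at CLDN6, a claudin of embryonic epithelia. The shared peak at 3020793 to 3023060 on chromosome 16 (fold 3.94) lay upstream of it and 6.29 kb from CLDN9, but its midpoint falls in the body of TNFRSF12A, to which the rule gives it. The longest distance was at CLDN2 on chromosome X, which held 11 shared peaks in all.

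OCLN (occludin), MARVELD2 (tricellulin, at the corners where 3 cells meet) and F11R (junctional adhesion molecule A) had 0 peaks in all 3 lists. The nearest shared peaks lay 935, 857 and 1170 kb from their bodies. Replicate 1 came closer, to 593, 516 and 1079 kb, and at F11R replicate 2 came closer still, to 1070 kb.

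Among the plaque scaffolds, CGNL1, which encodes paracingulin, had the strongest shared peak of the 34 genes. It lay within the gene body, 110 kb after the start, at 57485989 to 57486504 on chromosome 15. Its fold was 5.61 in replicate 1 and 5.45 in replicate 2, with a −log10 q of 6.39 and 5.33. By the mean of the fold percentiles in both replicates (99.7) it ranked 7 of 6293 shared peaks. It was the only peak of these genes to reach a −log10 q of 5 in each replicate, a level found in the domains of 25 of all 19974 genes. The other shared CGNL1 peak lay 1.03 kb beyond the 3' end, at 57551513 to 57551981, with folds of 4.22 and 4.36. Replicate 1 held 3 further CGNL1 peaks with folds of 3.39 to 4.07 that had no counterpart in replicate 2. The strongest of them lay at 57571152 to 57571327, 20.5 kb beyond the 3' end, and the next at 57427640 to 57427911 in the gene body (fold 3.68).

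TJP1, which encodes ZO-1, had 2 peaks in replicate 1, with folds of 4.43 and 3.53, and 0 in replicate 2. They lay close together, the stronger at 29924783 to 29924898 on chromosome 15, 44.2 kb inside the gene. TJP3 (ZO-3) and CGN (cingulin) had 0 peaks in all 3 lists, with the nearest shared peaks 825 and 790 kb away. The 2 cingulin family genes therefore differed in these lists, with 2 shared peaks at CGNL1 and 0 at CGN, in domains of 237 and 54.7 kb.

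**Figure D3:**
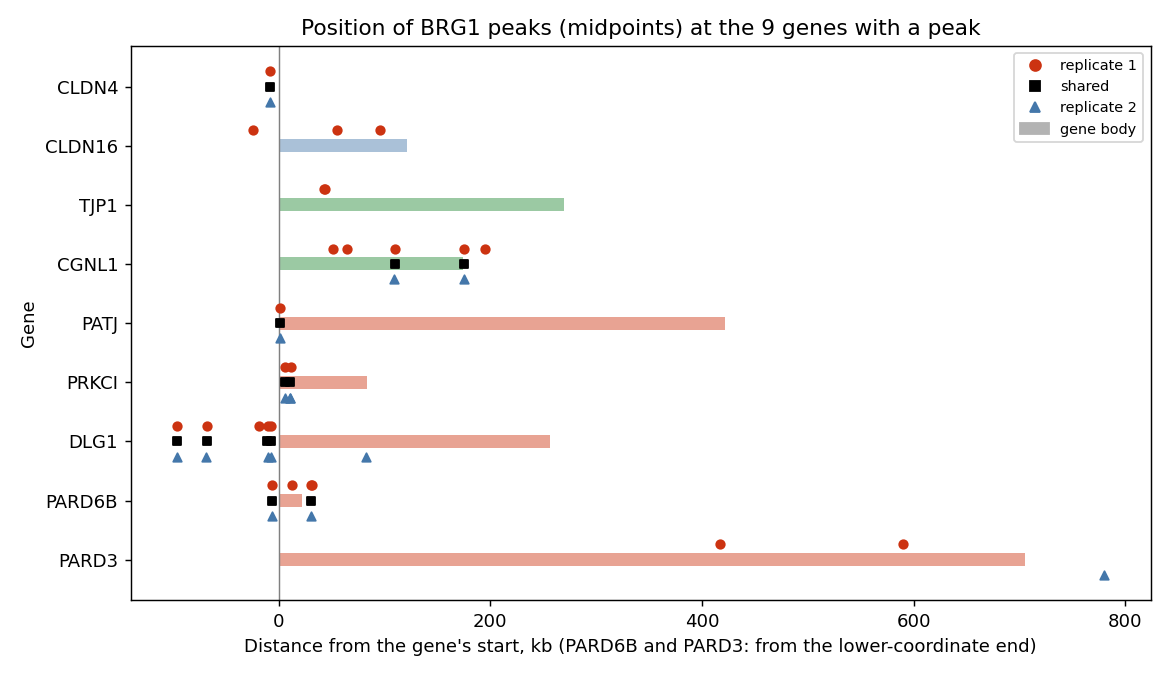
Midpoints of BRG1 peaks (horizontal axis, distance from the gene's start in kb, negative values upstream) at the 9 genes with a peak in any list, with shaded bars for gene bodies, circles for replicate 1, squares for shared peaks and triangles for replicate 2. PARD6B and PARD3, whose strand was not in the promoter table, are drawn from their lower-coordinate end. All 4 shared DLG1 peaks lie upstream, from 7.32 to 95.6 kb.

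Among the polarity genes, DLG1, a membrane-associated guanylate kinase of the basolateral domain, had 4 shared peaks, a number reached by 141 genes (0.706%) in all. That share is not matched for length, and the DLG1 domain of 363 kb is long against the median of 56.5 kb over all genes. All 4 lay upstream of the outermost start, in the 210 kb that separate DLG1 from BDH1. The nearest pair, at 197305917 to 197307367 and 197309480 to 197310117 on chromosome 3, had midpoints 7.32 and 10.5 kb from the start. The first had a fold of 3.50 in replicate 1 and 3.75 in replicate 2, and the second 4.29 and 3.71. The other 2, at 197366859 to 197367574 and 197394684 to 197395199, lay 67.9 and 95.6 kb upstream. Their folds were 3.69 and 4.13 for the nearer and 3.38 and 3.80 for the farther, which is just inside the limit of 100 kb. The farther peak also lies near the middle of the stretch between DLG1 and BDH1, so its position hardly favours either gene. Extending the limit to 1 Mb added no shared peak to any of the 34 genes, but it could add few. A flank still ends midway to the next protein-coding gene, so the domains grew little. The same 12 peaks were 2.58 per Mb with that limit, against 2.81 with the limit of 100 kb. Replicate 1 had a further DLG1 peak 18.3 kb upstream, at 197317230 to 197318021 (fold 4.13), and replicate 2 one inside the gene (fold 3.71).

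PRKCI, the kinase of the Par complex, had 2 shared peaks inside the gene, 5.86 and 11.3 kb after its start. The first, at 170227988 to 170228585 on chromosome 3, had folds of 3.36 and 3.55 in replicates 1 and 2 and the lowest mean fold percentile of the 12 (33.7). The second, at 170233300 to 170234108, had folds of 3.75 and 3.70. Replicate 2 alone held another small peak between them (fold 3.50).

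PARD6B, the Par complex adaptor that binds the kinase, had a shared peak on each side of a gene body of 22.2 kb. The one on the lower-coordinate side, at 50724859 to 50725220 on chromosome 20, lay 6.54 kb from the body. It was the peak on which the replicates differed most, with a fold of 4.43 in replicate 1 (95.3 percentile) and 3.44 in replicate 2 (29.8 percentile). The other, at 50761626 to 50763138, lay 8.64 kb beyond the opposite end and matched 2 separate peaks in replicate 1 (folds 3.47 and 3.94) and 1 in replicate 2 (3.70). A peak within the gene was listed in replicate 1 only, with a fold of 3.19.

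PATJ, a scaffold of the Crumbs complex with many PDZ domains, had 1 shared peak, and it was the only shared peak of these genes with its midpoint within 3 kb of a start in the promoter table. It lay at 61743295 to 61744590 on chromosome 1, with its midpoint 1.46 kb after the annotated PATJ start, which directly follows the sequence shown above. The folds were 3.47 and 3.85, with a −log10 q of 1.60 and 1.94. With the CGNL1 peak beyond the 3' end, 2 of the 34 genes had a shared peak within 3 kb of a gene end (5.88%), where 2.00% of all genes had one.

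PARD3, the Par complex scaffold and the longest of the 34 genes at 706 kb, had peaks in both replicates but none that overlapped. Replicate 1 had 2 in the gene body. The one at 34699099 to 34699206 on chromosome 10 had a fold of 5.71 and a −log10 q of 6.41, the highest fold of any peak of these genes, yet replicate 2 listed nothing there. The second, at 34526443 to 34527172, had a fold of 3.87. The replicate 2 peak, at 34889623 to 34889749, lay 74.4 kb outside the gene (fold 4.09). CRB3, the small membrane anchor of the Crumbs complex, had 0 peaks in all lists in a domain of 5.44 kb.

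Replicate 1 listed 25 peaks in the domains of these genes and replicate 2 listed 15. By replicate, 9 of the 34 genes (26.5%) had a peak in replicate 1, where 20.2% of all genes did, and 7 (20.6%) in replicate 2, where 11.5% did. Overlapping peaks of both replicates were found at 6 genes, the same as those with a shared peak, where 9.36% of all genes had them. Of the replicate 1 peaks, 52% were found in replicate 2 (13 of 25; exact 95% interval 31.3 to 72.2%), against 33% of replicate 1 peaks in all gene domains. Of the replicate 2 peaks, 80% were found in replicate 1 (12 of 15; interval 51.9 to 95.7%), against 74.1%. The intervals treat peaks as independent and hold no read sampling. The remaining 12 replicate 1 peaks lay at CLDN16, TJP1, CGNL1, PARD3, DLG1 and PARD6B. Their median fold was 3.78 and their median −log10 q 2.16, against 3.69 and 2.28 for the 13 that replicate 2 also held. Over all gene domains, the replicate 1 peaks without a counterpart had medians of 3.56 and 1.85, against 3.81 and 2.44 for those with one.

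Fold values were similar in size between replicates, but their order differed. The 12 shared peaks had a median fold of 3.72 in replicate 1 and 3.75 in replicate 2. Pearson's r between the replicates was 0.74 and Spearman's rho 0.11 over these 12 peaks, which share libraries and in part genes. Without the CGNL1 body peak the r was 0.05 over 11 peaks, so the value of 0.74 rests on it. Over all 6293 shared peaks r was 0.71 and rho 0.69. The fold was higher in replicate 1 at 5 of the 12, and at 2064 of all 6293 shared peaks.

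**Figure D4:**
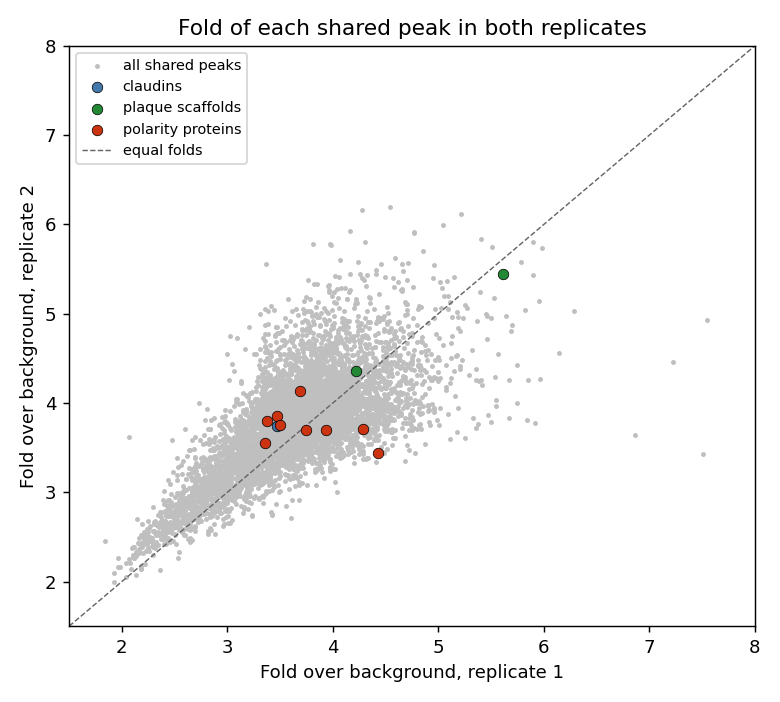
Fold over background in replicate 1 (horizontal axis) and replicate 2 (vertical axis) for each shared peak, grey for all peaks and coloured by class for the 12 at tight junction and polarity genes, with a dashed line at equal folds. The CGNL1 body peak stands apart at 5.61 and 5.45, and the other 11 lie within the main cloud.

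Of the 12 shared peaks, 4 (33.3%) lay in a gene body, where 57.3% of all placements of shared peaks were. Upstream of the gene lay 5 of 12 (41.7%), against 18% over all genes, and 4 of these 5 belong to DLG1. The 2 PARD6B peaks, 1 in each flank, could not be called upstream or downstream, as that gene's strand was not known here. Over all genes, 5.39% of placements lay in such a lower-coordinate flank and 5.36% in a higher-coordinate one. The median width of the 12 peaks was 618 bp, against 992 bp for shared peaks in all gene domains, and their median fold 3.41 against 3.47.

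Of 48 other tight junction and polarity genes on a fixed list, 8 had a shared peak (16.7%, where the all-gene share is the 9.67% given above). The shares of their length classes add up to 6.34. AMOTL2, an angiomotin family protein of junctions and the Hippo pathway, had 3 in the 3' flank (folds 3.22, 3.53 and 3.25 in the overlap list). MAGI2, a long junctional scaffold gene, had 3, of which 2 lay upstream, and PODXL, an apical membrane sialomucin, had 2. AMOTL1, PARD3B and the junctional receptor gene CXADR had 1 each. YBX3, the transcription factor that binds ZO-1, had 1 whose midpoint lay 0.09 kb after its start, at 10722896 to 10723571 on chromosome 12 (fold 3.12). It was the only shared peak over a promoter window on that list, and its sequence is given at the end. The replicate peaks there (folds 3.77 and 3.52) overlap by 173 bp. The midpoint of the replicate 1 peak lies before the start, in the domain of the neighbouring gene LOC124902876, so that overlapping replicate peaks were counted at 7 of the 48 genes. CLDN24 had 1 located 37.9 kb upstream (fold 3.04), which lies 39.5 kb from the body of CLDN22. DLG2, DLG3, DLG4, DLG5, PARD6A, PARD6G, PRKCZ, CRB1 and CRB2, of the same families as the polarity genes above, had no shared peak. MARVELD3, JAM2, JAM3, SCRIB, LLGL1, LLGL2, PALS1 and the remaining genes of that list also had none. Per length, the domains of the 48 genes held 1.16 shared peaks per Mb. That is below the 1.55 over all genes and the 4.71 of the 6 polarity genes.

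The YBX3 sequence is shown because the peak covers 248 of its 250 bases before the start. It is from RefSeq (GRCh38.p14), chr12:10723324-10723573, minus strand, 5′ to 3′, and holds none of the 4 motifs, so it has no capitals.
YBX3: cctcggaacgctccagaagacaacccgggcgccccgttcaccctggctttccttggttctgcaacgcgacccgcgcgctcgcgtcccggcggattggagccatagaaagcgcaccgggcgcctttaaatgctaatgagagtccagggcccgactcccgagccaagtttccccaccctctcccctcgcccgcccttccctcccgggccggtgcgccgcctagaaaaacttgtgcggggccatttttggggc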

How the data were processed

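BRG1 ChIP-seq was made from wild-type 12Z cells in 2 replicates with 1 input library. Per the labels' protocols, chromatin was fixed, cut with micrococcal nuclease and briefly sonicated. The submitters' processing notes name GRCh38.p12 as the build and list MACS2, Bowtie2, Picard, SAMtools, bedtools, cutadapt and Trim Galore. Their versions and settings, and the filter behind the lists, were not given in the sources used here. No list for the input was used.

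The deposited files give, per peak, the authors' fold over background (a ratio) and the −log10 of the q-value, which were used, and a p-value and score, which were not. The lists hold no read counts, so depth is unknown. The sources used here do not say if pooled reads went into the overlap list, and its peak values were used only to describe, rank and filter peaks.

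Peaks on chromosomes 1 to 22 and X were placed by midpoint with RefSeq protein-coding genes of GRCh38.p14, whose gene coordinates are not printed. All 34 members and 48 other genes matched by symbol. Exons and introns were not separated. Peak sequences were not analysed here. Promoters near shared peaks replaced the planned promoters under a peak, since none of these genes had one. Peaks of the replicates were matched by an overlap of 1 bp. Counts carry no test. The members, their classes and the lists were chosen with earlier results of these data known. All members and their shared peaks, and other genes with a shared peak, are named. Replicate 1 and replicate 2 peaks without a counterpart are given by count and, for the 10 of highest fold percentile, by position. Placement and overlap code was tested on simulated data. Versions were pandas 2.3.3, scipy 1.17.1, numpy 2.4.6 and matplotlib 3.10.9 under Python 3.11.15. Alternatives were the radius, gene body only, a −log10 q of 5, peaks placed by any overlap, each replicate alone, a 50% overlap and other gene-end windows.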

Additional observations from a re-analysis of the deposited data

How the results depend on the processing

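Of 42 alternatives, 24 left a count within 1.5 times of the main value, or a share within its exact interval. The 6 genes with a shared peak were the same with a radius of 50 kb, with 1 Mb and with any overlap of 1 bp. The radius of 1 Mb could change little, because a flank ends midway to the next protein-coding gene. With gene bodies only, 3 genes (CGNL1, PATJ and PRKCI) held 4 shared peaks, or 1.5 per Mb, where 5.95% of all genes had one, and 4 of the other pathway genes had one; CLDN4, DLG1 and PARD6B dropped out because their peaks lie in flanks. With a −log10 q of 5 in both replicates, 1 gene (CGNL1) kept 1 peak, or 0.234 per Mb, and 0 other pathway genes had one. Members at a gene end were then 0, and overlapping replicate peaks were left at 1 gene, with 100% of the single replicate 2 peak found in replicate 1. So 5 of the 6 genes rest on peaks below that level in both replicates. Peaks of a single replicate in place of the overlap list (leave-one-out) gave 7 to 9 genes, from longer lists. They gave 15 to 25 peaks, 3.51 to 5.85 peaks per Mb and 9 to 13 other pathway genes. Over all genes, replicate 2 alone gave a peak at 11.5% of genes and 2.1 peaks per Mb, and replicate 1 alone 20.2% and 4.63. A gene-end peak was found at 3 of the 34 genes with replicate 2 alone, where 2.90% of all genes had one. With replicate 1 alone it was found at 2 of the 34, a share below the 6.68% of all genes. With 50% of both peaks overlapping, the share found in the other replicate fell to 28% for replicate 1 and 46.7% for replicate 2, while 5 genes kept overlapping peaks. The matching values over all genes and all peaks were not computed, so whether this fall is particular to these genes is unknown. Gene-end windows of 1 kb gave 0 genes (0.896% of all genes) and of 10 kb gave 8 (4.40%), of which CLDN6 and CLDN9 enter through the peak that the rule gives to TNFRSF12A. Depth is unknown, so a gene without a peak cannot be called unbound.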
